A study of Mus musculus with 43 samples.

Results

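The goblet cell genes described here are 10 genes chosen by their symbols, Muc2, Clca1, Agr2, Tff3, Spdef, Fcgbp, Zg16, Spink4, Reg4 and Atoh1. All 10 were found once each among the 52636 genes of the organoid table, and their values were read in all 24 organoid libraries. The same 10 genes were read in 19 libraries of mouse colon fibroblasts as a negative check. The rule used gene names and no measured value.

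Bulk RNA sequencing was performed on mouse colon organoids grown from mice carrying Vil-CreERT2, a tamoxifen-inducible Cre recombinase driven by the villin promoter of gut epithelium. All mice were given tamoxifen in vivo and were 2 months old, and each organoid line came from an individual mouse, so the line is the replicate. Colonoids (lines M41, M40 and M1) had wild-type Apc, and tumoroids (lines F11, M3 and M14) came from Apc flox/flox mice, in which Cre removes Apc, the brake on Wnt signaling. Every line was cultured for 6 days with vehicle (Ve, 0.5% DMSO), 4 µM regorafenib (R4), 8 µM regorafenib (R8) or 1 µM 5-fluorouracil (5-FU), which gave 8 groups of 3 libraries. Regorafenib is a multi-kinase inhibitor and 5-FU a pyrimidine analog, and the study addressed how colon tumor cells withstand regorafenib. The fibroblasts came from wild-type C57BL/6 mice, 2 months old for lines M3 and M3(2) and of an age not given in the labels for lines M1(2) and M11, and were cultured for 7 days with vehicle, regorafenib at 4 or 10 µM, 1 µM autogramin-2 or both drugs. In 3 libraries, tumoroids with 5-FU by their genotype label, the title says colonoid, and these were placed by the genotype.

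Goblet cells are the mucus-secreting cells of the gut lining and the most abundant secretory cell type of the colon. They arise from crypt progenitors in which Notch signaling is low, under the transcription factor Atoh1 and, downstream of it, Spdef, which drives goblet maturation. Mature goblet cells fold the mucin Muc2 with the help of the disulfide isomerase Agr2, store it in granules and release it with Clca1, Fcgbp, Zg16, Tff3 and other small secreted proteins. Loss of Apc and high Wnt signaling are known to favor progenitor over differentiated states in the intestine.

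The members lie on 6 chromosomes of the GRCm38 build (GENCODE M21 annotation). Muc2 is at chr7:141690340-141754693 and Fcgbp at chr7:28071236-28120862, both on the plus strand, and Zg16 is at chr7:127050156-127087328 on the minus strand. Clca1 is at chr3:145003817-145032776 on the minus strand, and Reg4 at chr3:98222156-98236748 on the plus strand. Tff3 (chr17:31125306-31129646) and Spdef (chr17:27714352-27728955) are on the minus strand. Agr2 (chr12:35992907-36004087), Spink4 (chr4:40920052-40931395) and Atoh1 (chr6:64729125-64731245) are on the plus strand. No member overlapped a gene on its own strand. Zg16 overlapped Gm44939 and Gm22747 on the other strand, whose values reached at most 4 and 0 CP20M in the organoid libraries.

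Promoter sequences from RefSeq (GRCm38.p6) were available for 6 of the 10 members. The 250 bases before the annotated start are printed for Muc2 (chr7:141690090-141690339), Fcgbp (chr7:28070986-28071235) and Agr2 (chr12:35992675-35992924), all on the plus strand, as examples of members called lower in colonoids with 8 µM regorafenib. The RefSeq start was used, and for Agr2 it lies inside the GENCODE gene, so the last 18 bases printed for Agr2 fall within the GENCODE gene. Capitals mark matches on either strand to the E-box CANNTG (the kind of site bound by basic helix-loop-helix factors such as Atoh1), the caudal-type site TTTATG and the TATA box TATAAA.
Muc2: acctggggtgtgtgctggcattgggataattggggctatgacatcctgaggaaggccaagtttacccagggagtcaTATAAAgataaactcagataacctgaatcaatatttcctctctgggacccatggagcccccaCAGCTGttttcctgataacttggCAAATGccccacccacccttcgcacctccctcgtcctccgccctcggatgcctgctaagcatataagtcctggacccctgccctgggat
Fcgbp: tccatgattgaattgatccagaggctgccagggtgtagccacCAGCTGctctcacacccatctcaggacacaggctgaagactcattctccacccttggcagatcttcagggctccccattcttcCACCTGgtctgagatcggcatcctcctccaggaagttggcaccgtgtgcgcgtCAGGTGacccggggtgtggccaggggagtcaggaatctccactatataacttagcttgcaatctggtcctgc
Agr2: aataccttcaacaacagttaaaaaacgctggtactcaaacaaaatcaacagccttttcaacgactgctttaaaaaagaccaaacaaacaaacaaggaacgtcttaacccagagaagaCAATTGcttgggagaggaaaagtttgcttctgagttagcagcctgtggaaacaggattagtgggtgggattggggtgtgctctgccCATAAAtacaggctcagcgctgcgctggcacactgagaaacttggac
An E-box was present in 4 of the 6 member promoters, against 66.2% of all 32851 RefSeq promoters of the same length. The form CAGCTG, which is also counted as CANNTG, was present in 2 of the 6 (Muc2 and Fcgbp, against 4271 of all 32851 promoters), and CAGATG in 0 (against 14.4%). TTTATG was present in 2 of the 6 (Agr2 and Spdef, against 10.8% of all) and TATAAA in 1 (Muc2, against 12.4%). The E-boxes of Muc2 began 112 and 89 bases before the start, and those of Fcgbp 208, 125 and 72 bases before it. These matches describe the letters of the sequence and were not tested for binding.

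Values are given in CP20M, reads per gene scaled to 20000000 reads per library and not divided by gene length, so that 20 CP20M equals 1 CPM. Between 512592 and 22370022 reads per organoid library were counted on genes (median 15697936). The shallowest library, colonoid line M41 with R4, stands apart: 1 read is worth 39.0 CP20M there, against 0.894 to 4.57 in the other 23 libraries. In that library Muc2 rests on 10 reads, Tff3 on 20, Fcgbp on 12, Atoh1 on 2, Clca1, Agr2, Spink4 and Reg4 on 1 each, and Spdef and Zg16 on 0. The counts of members at 4 µM are given with and without it, and the counts of related genes only with it. As a check of the tissue, 6 epithelial markers summed to 105871 to 348501 CP20M in the organoid libraries and to 179 to 1535 in fibroblasts. The sum of 6 fibroblast markers ran from 0 to 118 CP20M in organoid libraries and from 99057 to 168895 in fibroblasts.

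Differences were tested on log2(CP20M + 20) with limma over the 11562 genes that reached 200 CP20M in at least 2 of the 24 libraries. A gene was called at an adjusted p (Benjamini-Hochberg over all genes tested) below 0.05 if it also differed by at least 1.5-fold in either direction. Of the 10 members, 8 passed the filter on low values, and Spdef and Atoh1 did not, so these were tested only where the filter was dropped. The 8 members passed almost entirely through colonoid libraries, in which their levels were high, so counts and medians over them are descriptions of these 8 genes. With 3 lines a group an exact permutation test could not go below p = 0.1, and none was run for Spdef and Atoh1. In these bulk libraries, fewer goblet cells and less of each transcript per cell cannot be told apart.

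All 10 members had their highest mean level in colonoids grown with vehicle, and the summed level of each tumoroid line lay below that of each colonoid line. In vehicle, Clca1, Agr2, Muc2 and Fcgbp were lower in tumoroids than in colonoids, and the summed level of the 10 members was 14313 CP20M in line M41, 20769 in M40 and 1597 in M1, against 506, 74 and 162 in tumoroid lines F11, M3 and M14. The question here is what loss of Apc does to the goblet program before any drug. Colonoid line M1 held less of every member than M41 and M40, so the colonoid lines themselves differed widely.

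**Figure D1:**
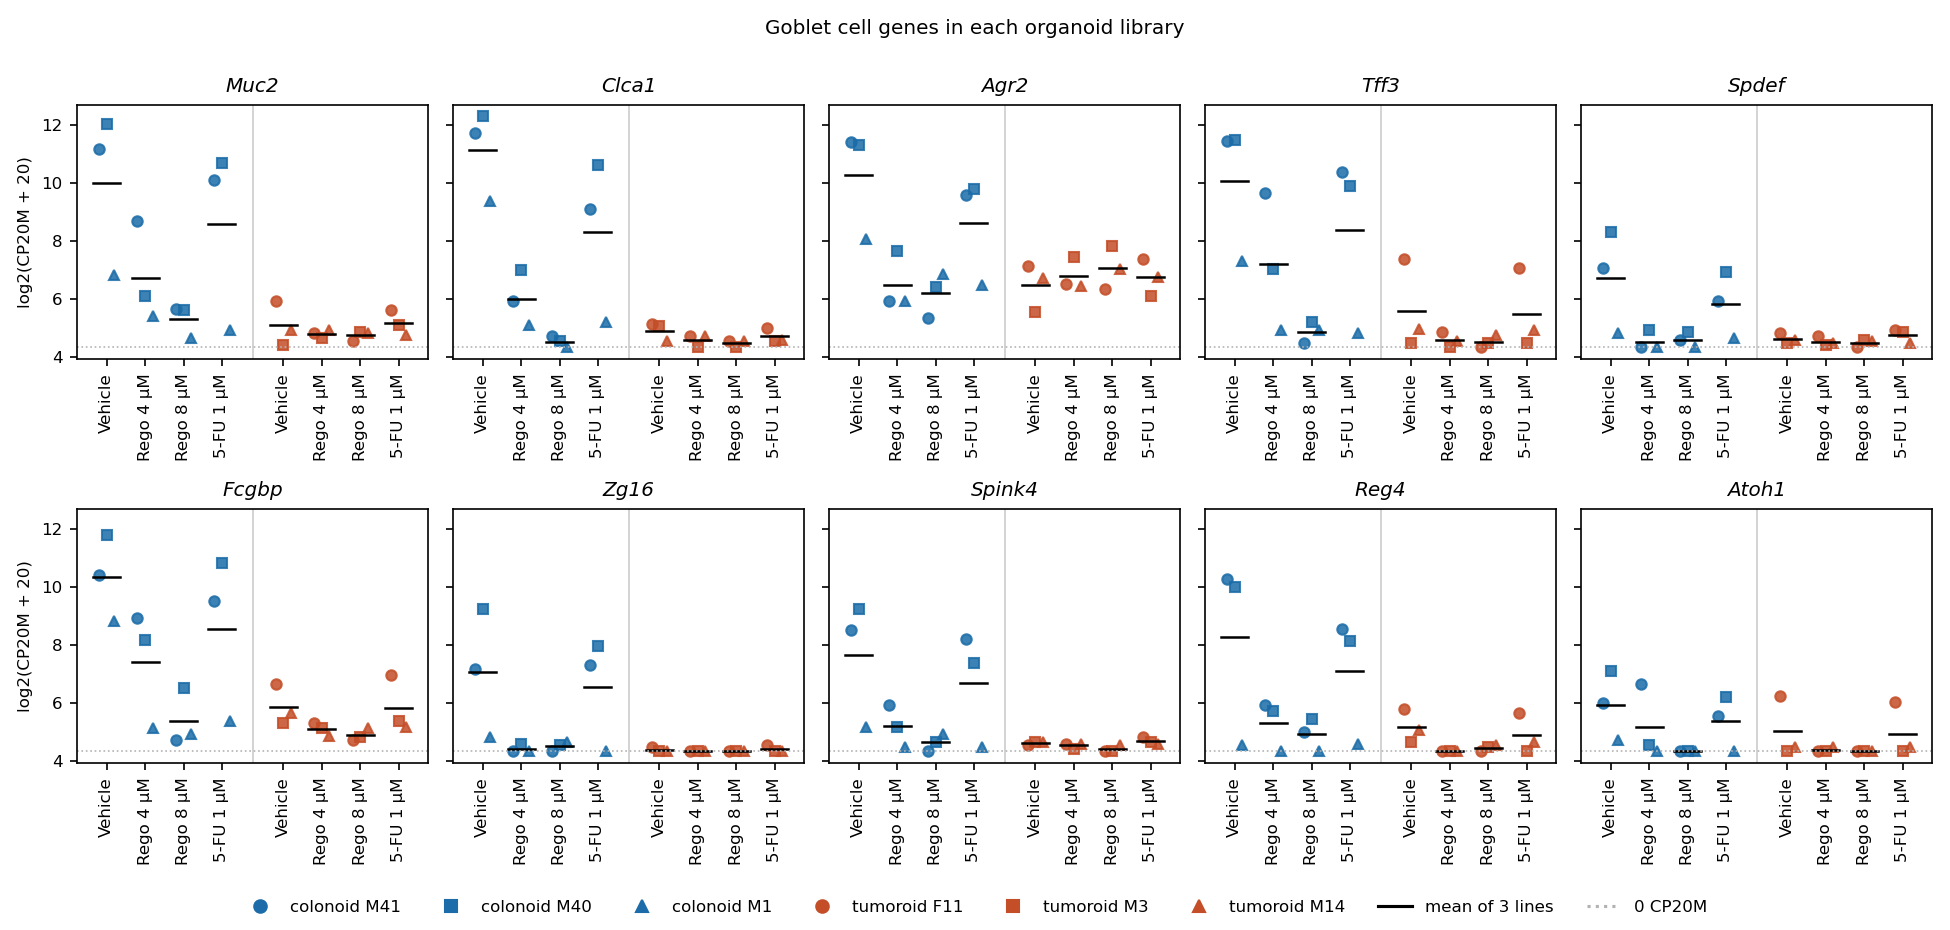
Levels of the 10 goblet cell genes on the log2(CP20M + 20) scale, 1 panel a gene, by genotype and treatment. Points are single lines, bars are means of 3 lines and the dotted line marks 0 CP20M. In each panel the colonoid vehicle group has the highest mean and the colonoid 5-FU group the next, and for Clca1 the mean is 11.14 in colonoids with vehicle and 4.52 with 8 µM regorafenib.

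Among the components of the mucus gel, Muc2, the mucin that forms the gel, had 2267, 4154 and 93 CP20M in colonoid lines M41, M40 and M1 with vehicle and 41, 1 and 10 in tumoroid lines F11, M3 and M14. Clca1, a secreted metalloprotease that processes Muc2, had 3366, 5060 and 651 in the colonoids and 15, 13 and 3 in the tumoroids. Fcgbp, a large mucus protein that binds Muc2, had 1333, 3536 and 429 in the colonoids and 81, 19 and 30 in the tumoroids. The lowest colonoid library lay above the highest tumoroid library for all 3 genes. Zg16, a lectin that binds bacteria in the mucus, was low even in colonoids, at 122, 591 and 8, and had 2, 0 and 0 in tumoroids. The log2 fold change in tumoroids was −6.24 for Clca1 (SE 0.927, adjusted p = 0.00281, limma), −4.93 for Muc2 (SE 1.26, adjusted p = 0.0471) and −4.47 for Fcgbp (95% interval −6.77 to −2.18, adjusted p = 0.0379). For Zg16 the log2 fold change of −2.70 did not pass (adjusted p = 0.123).

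Agr2, which helps to fold Muc2 in the endoplasmic reticulum, had 2747, 2550 and 245 CP20M in the colonoid lines with vehicle and 121, 27 and 84 in tumoroid lines F11, M3 and M14, with no overlap (log2 fold change −3.81, SE 0.874, adjusted p = 0.0258). Among the secreted peptides, colonoid line M1 lay near the tumoroids. Tff3, a trefoil peptide that protects and repairs the lining, had 2771, 2866 and 138 in colonoids and 144, 2 and 11 in tumoroids. Spink4, a peptide of the protease inhibitor family, had 343, 588 and 16 against 3, 5 and 5, and Reg4, a secreted lectin, had 1208, 1013 and 3 against 35, 5 and 13. Tff3 in line M1 lay below tumoroid line F11, and Reg4 in M1 lay below all 3 tumoroid lines, so these 2 genes overlapped between genotypes. Their log2 fold changes of −4.49 for Tff3, −3.04 for Spink4 and −3.11 for Reg4 did not pass (adjusted p = 0.0839, 0.0769 and 0.161).

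The transcription factors were low throughout. Spdef had 113, 293 and 8 CP20M in colonoid lines M41, M40 and M1 with vehicle and 8, 2 and 4 in tumoroid lines F11, M3 and M14. Atoh1 had 43, 118 and 6 in the colonoids and 56, 0 and 2 in the tumoroids, so F11 held more than 2 of the 3 colonoid lines. In all, 4 of the 8 members tested were called, each of them lower in tumoroids, while 2.06% of all genes tested were called in either direction. The tested members had a median log2 fold change of −4.14, beside 0.06 over all genes. The groups did not overlap for 6 of the 10 members, all lower in tumoroids, as for 10.7% of genes tested. Without line M1 all 8 members were called, and without any of the 5 other lines 1 was, Clca1 each time. Tff3 and Spink4 were also called without the shallowest library, for a count of 6.

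With 8 µM regorafenib no member exceeded 97 CP20M in any colonoid line. Of the 8 members tested, 7 fell against vehicle in colonoids (Muc2, Clca1, Agr2, Tff3, Fcgbp, Spink4 and Reg4), while 15.3% of all genes tested were called in either direction. All 10 members were lower in each of the 3 lines, but in M1 Spdef, Zg16, Reg4 and Atoh1 began at 8 CP20M or less. The share of all genes lower in all 3 lines was not counted, here or in the other comparisons. The summed level was 80 CP20M in M41, 225 in M40 and 137 in M1, which is 0.559%, 1.08% and 8.58% of the same line with vehicle. The tested members had a median log2 fold change of −4.39, beside −0.06 over all genes. The size of this median depends on the pseudocount of 20 CP20M, since most values with R8 lie below it, and was −4.97 with a pseudocount of 4, −3.25 with 100 and −6.42 with edgeR on recovered reads.

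**Figure D2:**
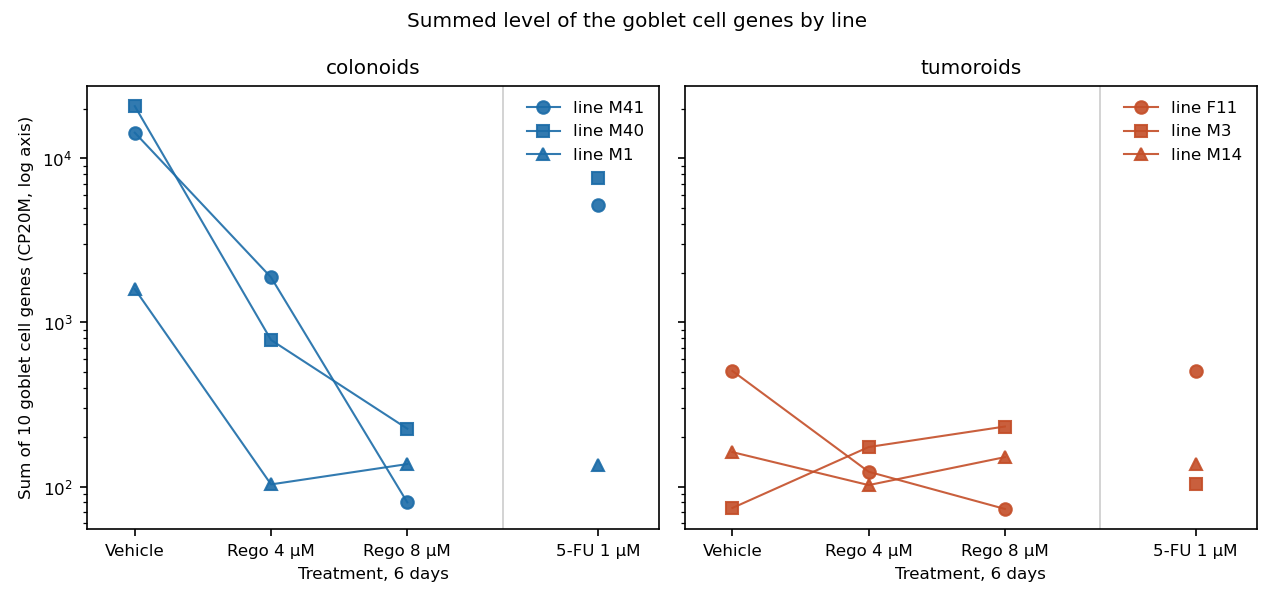
Summed level of the 10 goblet cell genes in CP20M on a log axis, for each line. Points of a line are joined across vehicle, 4 µM and 8 µM regorafenib, and 5-FU stands apart. Colonoid lines M41, M40 and M1 go from 14313, 20769 and 1597 with vehicle to 80, 225 and 137 at 8 µM. Tumoroid lines F11, M3 and M14 go from 506, 74 and 162 to 73, 232 and 151.

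Clca1 had the smallest adjusted p, and changes below are log2 fold changes. It had 6, 3 and 0 CP20M in lines M41, M40 and M1 with R8, against 651 or more with vehicle, and fell by 6.63 on that scale (SE 0.927, adjusted p = 1.11e-04, limma). Muc2 had 30, 29 and 5 and fell by 4.70 (SE 1.26, adjusted p = 0.0141), and Fcgbp had 6, 72 and 10 and fell by 4.96 (95% interval −7.26 to −2.66, adjusted p = 0.00430). None of these 3 genes overlapped between R8 and vehicle. Zg16 had 0, 3 and 5 with R8, below its lowest vehicle value of 8, though in M1 the 5 is 1 read and the 8 is 5 reads. Its log2 fold change of −2.57 missed the threshold (adjusted p = 0.0576) and passed with the line as a block (adjusted p = 0.0114, and 0.00380 to 0.252 over all alternatives).

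Agr2 had 20, 64 and 97 CP20M with R8 in lines M41, M40 and M1 and fell by 4.08 (SE 0.874, adjusted p = 0.00346). In line M1 it supplied 97 of the 137 CP20M that the members summed to. Tff3, at 2, 17 and 10, fell by 5.22 (SE 1.35, adjusted p = 0.0117), Spink4, at 0, 5 and 10, fell by 3.02 (SE 0.893, adjusted p = 0.0246) and Reg4, at 12, 23 and 0, fell by 3.35 (SE 1.14, adjusted p = 0.0496). Reg4 was the member closest to the threshold, and its R8 values in M41 and M40 lay above the vehicle value of 3 in M1. Spdef had 4, 9 and 0 with R8, and Atoh1 was at 0 in all 3 lines. A value of 0 allows up to 5.92 CP20M in M41, 6.14 in M40 and 13.7 in M1 (3 reads, counting error only). In M1 Atoh1, Spdef, Zg16 and Reg4 had only 6, 8, 8 and 3 with vehicle, so their direction there is not resolved.

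The groups of R8 and vehicle did not overlap for 8 of the 10 members, all lower with R8, as for 23.2% of genes tested. The exceptions were Spdef and Reg4. For Zg16, Spink4 and Atoh1 the gap between the groups rested on line M1, which had 1, 2 and 0 reads of them with R8. Without line M41 only Clca1 and Fcgbp were called and without M40 these and Agr2, 3 members, were, while all 8 were called without M1 and all 8 with the line as a block. Clca1 was called under every alternative tried. With no filter on low values, Spdef was called lower (log2 fold change −2.13, adjusted p = 0.0416) and Atoh1 was not called (adjusted p = 0.203).

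**Figure D3:**
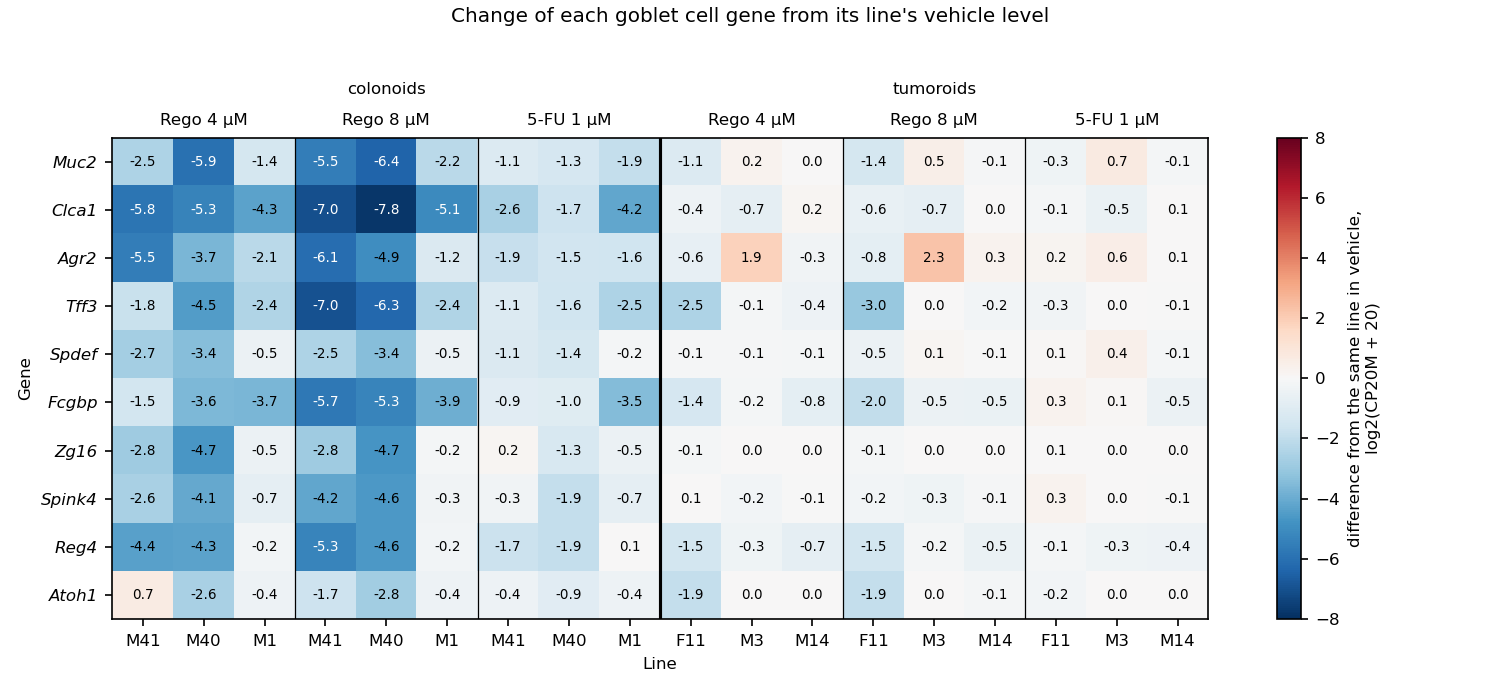
Difference in log2(CP20M + 20) from the same line grown with vehicle, for each of the 10 members (rows) and each line and treatment (columns). With 8 µM regorafenib every member of every colonoid line is below vehicle, though Spdef, Zg16, Reg4 and Atoh1 of line M1 began at 8 CP20M or less. In tumoroids the signs are mixed and Agr2 of line M3 is higher, at 207 against 27 CP20M.

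At 4 µM lines M40 and M1 had at most 269 and 40 CP20M of any member. Clca1 and Agr2 fell against vehicle in colonoids, 2 of the 8 members tested, while 10.2% of all genes tested were called in either direction. With the line as a block, which removes the differences between lines that recur in every treatment, all 8 were called. The summed level was 1880 CP20M in M41, 781 in M40 and 103 in M1, and the last 2 are 3.76% and 6.45% of the same line with vehicle.

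On the log2 scale 2 members passed. Clca1 had 40, 106 and 14 CP20M in M41, M40 and M1 with R4 and fell by 5.15 on that scale (SE 0.927, adjusted p = 0.00287). Agr2 had 40, 181 and 40 and fell by 3.78 (SE 0.874, adjusted p = 0.0112). Both lay wholly below vehicle, as did Zg16, at 0, 4 and 0. Muc2 had 391, 48 and 22, Fcgbp had 469, 269 and 15, and Tff3 had 781, 112 and 10. In these 3 genes the shallow M41 library held the most, and its values lay above those of line M1 with vehicle. The exact Poisson 95% intervals for M41 with R4 run from 187 to 718 CP20M for Muc2, from 242 to 818 for Fcgbp and from 477 to 1205 for Tff3, and cover counting error only.

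Spink4 had 40, 16 and 2 CP20M with R4 in M41, M40 and M1 and Reg4 had 40, 32 and 0. The log2 fold changes of the 6 members not called ran from −3.28 (Muc2, adjusted p = 0.0898) to −2.46 (Spink4, adjusted p = 0.0764), and the largest adjusted p was 0.153 (Tff3). With the block their adjusted p ran from 0.00762 (Fcgbp) to 0.0349 (Tff3), and over all alternatives Tff3 ran from 0.0191 to 0.489. Spdef had 0, 10 and 0, and Atoh1 had 79, 3 and 0, where the 79 stands for 2 reads with an interval from 9.45 to 282, and this interval holds the vehicle value of 43. Of the 10 members, 9 were lower in all 3 lines, and the groups did not overlap for 3 (Clca1, Agr2 and Zg16), as for 17.7% of genes tested. The tested members had a median log2 fold change of −2.94, beside −0.23 over all genes, and without line M41 or M1 the counts were 1 and 6.

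Without the shallowest library the median log2 fold change of the tested members at 4 µM was −3.59, beside −0.03 over all genes. Clca1 (−5.11, adjusted p = 0.00627) and Agr2 (−3.49, adjusted p = 0.0304) were the 2 called. Muc2 was −4.26 (adjusted p = 0.0501), Fcgbp −3.68 (0.0557), Tff3 −4.11 (0.0680) and Spink4 −2.83 (0.0824). The 2 remaining R4 libraries did not overlap vehicle for 7 of the 10 members (Muc2, Clca1, Agr2, Tff3, Fcgbp, Zg16 and Atoh1), all lower, as for 23.9% of genes tested. Without that library and with the block 8 members were called and the median was −3.45.

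Between the doses, 0 of the 8 members tested differed in colonoids, while 0.234% of all genes tested were called and 0 members had an unadjusted p below 0.05. The estimates were mostly below 0 with wide intervals. Tff3 was −2.34 at 8 against 4 µM on the log2 scale (95% interval −5.15 to 0.47, adjusted p = 0.324), Fcgbp −2.04 (−4.33 to 0.26, adjusted p = 0.296) and Clca1 −1.48 (−3.41 to 0.46, adjusted p = 0.361). Clca1 was the 1 member of 10 whose libraries did not overlap between doses, lower at 8 µM, as for 5.53% of genes tested. Agr2 was −0.29 (−2.12 to 1.53) and Zg16 0.09 (−1.80 to 1.98). The shallow M41 library is 1 of the 3 at 4 µM, and without it and with the block Tff3 was −1.61 (adjusted p = 0.459). EdgeR on recovered reads called 0 members as well.

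With 5-FU, colonoid lines M41 and M40 held about 36.4% and 36.5% of their summed vehicle level, and line M1 8.45%. The members were at 5206, 7585 and 135 CP20M in sum. No member passed the test against vehicle in colonoids, 0 of 8, while 0.0432% of all genes tested were called, and 1 member, Clca1, had an unadjusted p below 0.05. EdgeR on recovered reads also called 0.

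Muc2 had 1072, 1644 and 10 CP20M in M41, M40 and M1 with 5-FU, Clca1 had 534, 1571 and 17, and Fcgbp had 714, 1777 and 21. Agr2 had 745, 862 and 68, and Tff3 had 1305, 943 and 8. These 5 genes were lower than vehicle in all 3 lines, yet M41 and M40 stayed above the vehicle level of line M1 in 4 of them, the exception being Clca1. Spink4 had 277, 145 and 2, Reg4 had 353, 260 and 4, and Zg16 had 139, 229 and 0. Zg16 in M41 and Reg4 in M1 were slightly above their vehicle values of 122 and 3. Spdef had 40, 100 and 5, and Atoh1 had 27, 54 and 0. For all 10 members the 5-FU and vehicle libraries of colonoids overlapped. The log2 fold change of Clca1 was −2.82 (95% interval −4.76 to −0.89, adjusted p = 0.431). Its adjusted p was 0.0509 with the block, 0.0218 when the shallowest library was also left out of the fit, and 1.00 without line M1. The others ran from −1.77 (Fcgbp, −4.07 to 0.52) to −0.54 (Zg16, −2.43 to 1.35), with a median of −1.55 over the tested members, beside 0.01 over all genes. The comparisons of R4, R8 and 5-FU with vehicle share the same 3 colonoid vehicle libraries.

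Set directly against each other in colonoids, 8 µM regorafenib left lower levels than 5-FU for 1 member of 8, Clca1 (log2 fold change −3.80, SE 0.927, adjusted p = 0.0197), while 5.92% of all genes tested were called in either direction. With the line as a block 6 members were called, the others being Muc2 (adjusted p = 0.0141), Agr2 (0.0485), Tff3 (0.0176), Fcgbp (0.00575) and Spink4 (0.0479). Without line M1 all 8 members were called, without M41, M40, M3 or M14 none was (tumoroid lines enter through the shared estimate of the spread), and the adjusted p of Clca1 ran from 4.63e-04 to 0.203. All 3 lines were lower with R8 for 5 of the 10 members, and in line M1, where both drugs left little, Agr2 had 97 with R8 and 68 with 5-FU. The libraries did not overlap for Clca1 alone, as for 21.7% of genes tested in that direction. These comparisons share the colonoid R8 libraries and their values are not independent of those against vehicle. The doses of the drugs are not matched.

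**Figure D4:**
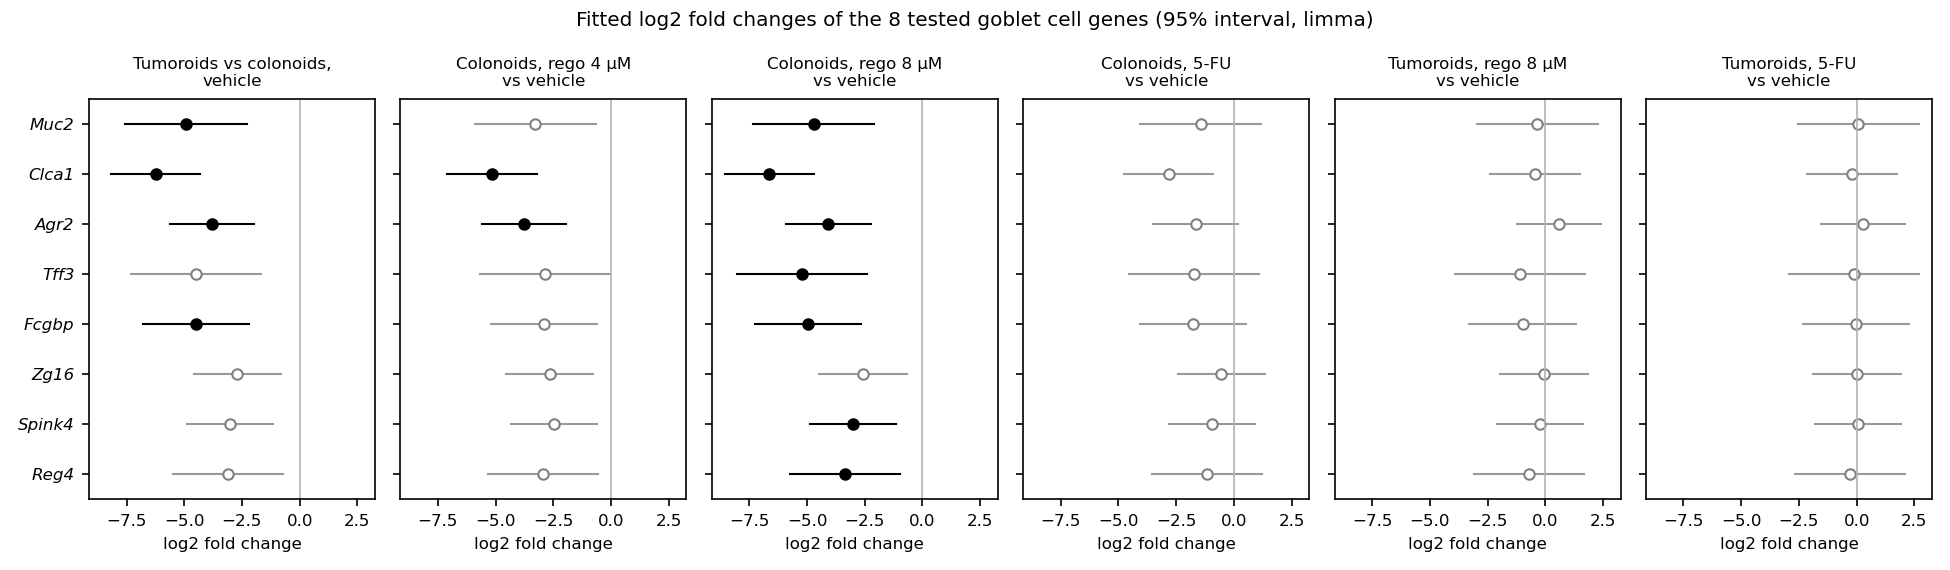
Log2 fold changes of the 8 tested members in 6 comparisons, with 95% intervals from limma. Filled points were called. In colonoids with 8 µM regorafenib 7 of 8 points are filled, with 4 µM 2 and with 5-FU 0, and in tumoroids the points lie between −1.08 and 0.59 with none filled.

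In tumoroids, no member passed the test with any treatment, but the vehicle levels left little room for a fall. If a tested member were at 0 CP20M in every treated tumoroid library, its log2 fold change on this scale would be −2.14 for Agr2, −1.54 for Fcgbp, −1.27 for Tff3, −0.83 for Reg4, −0.75 for Muc2, −0.58 for Clca1, −0.28 for Spink4 and −0.05 for Zg16, and the last 3 could not have reached the 1.5-fold required. Of the 8 tested members, 7 passed the filter on low values without any tumoroid library, and Agr2 passed it in 1. The counts called were 0 of 8 with R4 (3.70% of all genes tested were called), 0 of 8 with R8 (6.23% of all genes) and 0 of 8 with 5-FU (0.182% of all genes), with 0 members at an unadjusted p below 0.05 in each and 0 called by edgeR on recovered reads. The summed vehicle levels of 506, 74 and 162 CP20M in F11, M3 and M14 stood beside 123, 174 and 102 with R4, 73, 232 and 151 with R8 and 502, 103 and 138 with 5-FU. The sum was lower than vehicle at both doses of regorafenib in F11 and M14 and higher in M3.

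Of the tumoroid lines, F11 had the highest vehicle level of 9 members, all but Spink4, and lower values with R8. Its Muc2 had 41 CP20M with vehicle, 8 with R4 and 3 with R8, its Tff3 had 144, 9 and 0, its Fcgbp had 81, 19 and 6, and its Reg4 had 35, 0 and 0. With R8 all 10 members were lower than vehicle in F11, 7 were in M14 and 4 in M3. Its Atoh1 had 56 with vehicle, 0 with R4, 0 with R8 and 45 with 5-FU, and its Spdef had 8, 6, 0 and 10. Agr2 went the other way in line M3, from 27 with vehicle to 152 with R4 and 207 with R8, and had 84, 66 and 109 in M14 and 121, 71 and 61 in F11. Of the 232 CP20M that the members summed to in M3 with R8, Agr2 supplied 207. Reg4 was at 0 in all 3 lines with R4 and at 0, 2 and 3 in F11, M3 and M14 with R8, below its vehicle values of 35, 5 and 13. In tumoroids the libraries did not overlap between vehicle and R4 for Reg4 alone (lower, as for 20.1% of genes tested), between vehicle and R8 for Reg4 and Fcgbp (lower, as for 1986 of the 11562 genes tested) and between vehicle and 5-FU for 0 members. With R8 the tested members had a median log2 fold change of −0.39, which was −0.98 with a pseudocount of 4, −0.12 with 100 and −2.05 with edgeR on recovered reads, and with R4 the same values were −0.31, −0.59, −0.10 and −1.50. The fitted log2 fold changes with R8 ran from −1.08 (Tff3, 95% interval −3.89 to 1.73) to 0.59 (Agr2, −1.23 to 2.42). With 5-FU they ran from −0.29 (Reg4, −2.67 to 2.10) to 0.28 (Agr2, −1.54 to 2.11).

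Whether the response itself differed between genotypes was tested as a difference of log2 fold changes, tumoroids minus colonoids. The low vehicle levels of tumoroids set a limit here as well, since Clca1 could not go below −0.58 there while its log2 fold changes in colonoids were −5.15 and −6.63, and a difference in response and a lower starting level cannot be told apart. For regorafenib, averaged over both doses, 0 of 8 members passed, as did 0% of all genes tested (411 genes had an unadjusted p below 0.05), and 6 members had an unadjusted p below 0.05. Clca1 had the widest difference, at 5.51 (SE 1.13, adjusted p = 0.299), with an adjusted p of 0.0269 under the block and of 3.99e-04 to 1.00 over all alternatives. Agr2 had 4.39 (SE 1.07, adjusted p = 0.860). Without line M1 5 members passed, Muc2, Clca1, Agr2, Spink4 and Reg4. For 5-FU 0 of 8 members passed, as did 0% of all genes tested (87 genes had an unadjusted p below 0.05), with 0 members at that level, 0 called by edgeR, and a difference for Clca1 of 2.63 (95% interval −0.11 to 5.36). EdgeR called 0 members for regorafenib too.

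With 5-FU in both genotypes, 0 of the 8 members tested were called between tumoroids and colonoids, while 0.138% of all genes tested were, and 7 members had an unadjusted p below 0.05. EdgeR on recovered reads called 1, Clca1 (adjusted p = 0.0363, and 4.04e-05 to 1.00 over all alternatives). Clca1 had 12, 3 and 4 CP20M in F11, M3 and M14 with 5-FU, below the 17 of colonoid line M1, and was the 1 member of 10 with no overlap (as for 6.95% of genes tested), with a log2 fold change of −3.62 (95% interval −5.55 to −1.68, adjusted p = 0.193). Muc2 had 29, 14 and 7 in the tumoroids and overlapped colonoid line M1, which had 10. Without line M1 all 8 members were called.

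Across the 8 groups, the mean log2 level ranked colonoids with vehicle first and colonoids with 5-FU second for all 10 members. Below these, the order varied by gene, and every one of the 70 neighboring pairs of groups in the 10 rankings overlapped in its libraries. Between pairs of members, Pearson's r over the 24 libraries ran from 0.63 (Agr2 with Atoh1) to 0.97 (Spdef with Zg16), with a median of 0.89 over 45 pairs. These points share lines and treatments, and the libraries of M41 and M40 with vehicle and 5-FU carry the highest values of most members, so the correlations describe these 24 libraries. Per kilobase of exon, the median of the 3 vehicle colonoid libraries was 5621 CP20M for Tff3, 1975 for Agr2, 992 for Reg4, 891 for Clca1, 719 for Spink4, 318 for Muc2, 127 for Fcgbp, 97.1 for Zg16, 49.0 for Spdef and 20.3 for Atoh1. On this length-corrected level Tff3 and the folding enzyme Agr2 led, and both transcription factors were last.

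Genes related to the goblet program were described from lists, beside the 15.3% of all genes called with R8 in colonoids. Not every gene in these lists is particular to goblet cells, and which cells carried each was not tested. In colonoids with R8, of the 9 tested among 14 regulators of the secretory lineage, 5 fell and 0 rose, with a median log2 fold change of −1.12. They included Creb3l1, a membrane-bound factor of the secretory pathway (−2.62), Klf4, a factor of goblet and surface cell maturation (−2.13), and the forkhead factors Foxa2 (−1.70) and Foxa3 (−1.12). The list also holds Notch genes such as Hes1, a repressor of Atoh1, so a fall in it has no single meaning for goblet cells. Hes1 had 1292 to 1505 CP20M with vehicle and 770 to 851 with R8. Klf4 had 4578 to 6240 CP20M with vehicle and 1038 to 1446 with R8, and its adjusted p was 1.21e-05. Of the 4 tested among 8 other mucins 2 fell, the membrane mucins Muc13 (−4.30, from 4413 to 6883 CP20M with vehicle to 79 to 989 with R8) and Muc3 (−3.19), with a median of −2.61. Of the 9 tested among 14 genes of secretion and granules 3 fell, the stress sensor of mucus cells Ern2 (−3.11), the actin-severing Scin (−2.83) and the granule tether Sytl2 (−2.28), with a median of −0.94. Most enzymes that add sugars to mucins did not pass: of the 15 tested among 19, Galnt10 rose by 1.17, Gcnt4 fell by 1.92 and 13 did not pass, a share near that of all genes, with a median of −0.26. Of the 3 tested among 12 other secreted products, Lypd8 fell by 3.48, and Retnlb was called lower, from 36 to 441 CP20M with vehicle to 0 in all 3 lines. With the line as a block 7 of the 9 regulators, 5 of the 9 genes of secretion and granules, 3 of the 4 mucins, 3 of the 15 sugar enzymes and all 3 secreted products were called lower, beside 21.0% of all genes called.

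**Figure D5:**
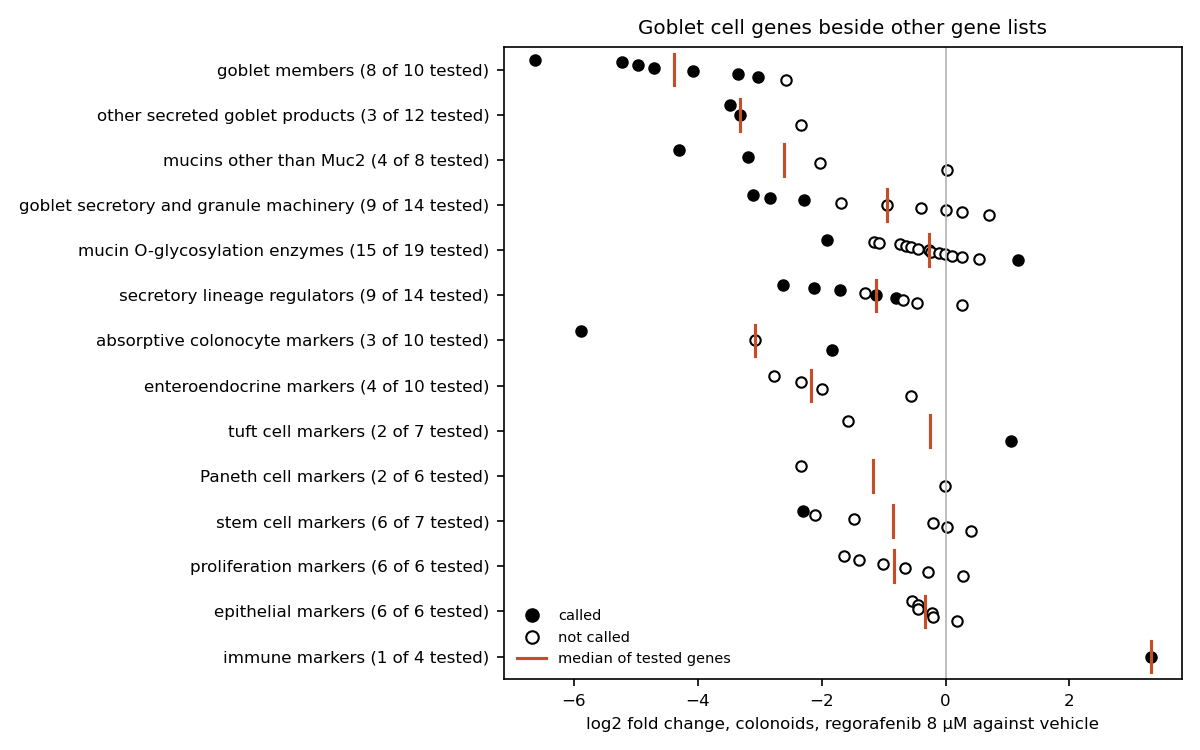
Log2 fold changes in colonoids with 8 µM regorafenib against vehicle for the goblet cell genes and the genes of each related list that passed the filter. Filled points were called and the red bar is the median of a list. The goblet cell genes have a median of −4.39, the mucin sugar enzymes −0.26 and the epithelial markers −0.32.

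With R4 in colonoids, where 10.2% of all genes were called, 4 of 9 regulators fell (median −0.80), Creb3l1 (−2.95), Klf4 (−1.89), Foxa2 (−1.70) and Hes1 (−0.80), a Notch target that represses Atoh1. Of the other groups, 4 of 9 genes of secretion and granules fell with a median of −1.11 (Ern2 −2.90, Sytl2 −2.09, Scin −1.61 and Rab27b −1.11). Muc13 was the 1 of 4 other mucins that fell (−3.53, list median −1.75) and Fut2 the 1 of 15 sugar enzymes (−1.80, list median −0.57), and 0 of 3 other secreted products were called. The list counts at 4 µM, also those with the block below, include the shallow M41 library, where 1 read is worth 39.0 CP20M. List counts without that library were not made. With the line as a block the counts called lower at 4 µM were 5 of 9 regulators, 5 of 9 genes of secretion and granules, 3 of 4 mucins (Muc13, Muc1 and Muc3), 4 of 15 sugar enzymes and 2 of 3 secreted products (Retnlb and Ang4), and 1 sugar enzyme, Galnt10, was called higher, beside 17.0% of all genes called. In vehicle, where 2.06% of all genes were called between genotypes, tumoroids had lower Creb3l1 (−2.19, the 1 of 9 regulators called, median −0.03), lower Muc3 (−4.33, the 1 of 4 other mucins, median 0.54), lower Sytl2 (−2.48, the 1 of 9, median −0.96) and lower Gcnt1 (−1.10, the 1 of 15, median −0.41). In tumoroids with R8, where 6.23% of all genes were called, Klf4 fell by 1.11 (1 of 9 regulators) and Muc13 fell by 3.21 (1 of 4 mucins). Muc13 and Klf4 were thus called lower with R8 in both genotypes.

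Markers of other cell types moved in the same libraries. With R8 in colonoids, the 6 epithelial markers had 0 called (median −0.32) and the 6 proliferation markers 0 called (median −0.83). The 10 absorptive colonocyte markers had a summed level of 25950 to 39194 CP20M with vehicle and 2491 to 17711 with R8, and Car1 (−5.88) and Car2 (−1.83) fell among the 3 tested. Car4 and Slc26a3, which were not tested, were at 0 in all 3 R8 libraries. The 10 enteroendocrine markers summed to 75 to 1934 with vehicle and 51 to 267 with R8, with 0 of 4 tested called and 3 with the line as a block, and Neurod1, Gcg and Insl5 at 0. Such zeros may lie at the floor, since Car4 and Gcg were at 0 in every tumoroid group too, vehicle included. The 4 immune markers summed to 50 to 83 with vehicle and 216 to 2661 with R8, nearly all of it Cd68, a lysosomal protein, which rose by 3.32, while Adgre1 and Cd3e were at 0. The part of these cell types in the levels of the goblet genes was not tested.

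In fibroblasts, whose table was scaled separately, the 10 members were close to 0. The highest single value was 10 CP20M, the summed level of all 10 was between 0 and 27 over 19 libraries (median 13), and Agr2 and Tff3 were at 0 in each. The tumoroid sums of 73 to 506 CP20M lay above these, but in part through Agr2. Without Agr2 the other 9 members summed to 12 to 385 CP20M in tumoroids, and 3 of the 12 tumoroid libraries (F11 with R8 at 12, M3 with R4 at 22 and M3 with R8 at 25) were within the fibroblast range of 0 to 27.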

How the data were processed

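RNA was sequenced from 24 libraries of mouse colon organoids and 19 of colon fibroblasts. Per the submitters' processing notes and the study's methods, the authors trimmed reads with Trimmomatic 0.36, aligned them to GRCm38 with STAR 2.5.3a and counted them per gene with HTSeq 0.9.1. Whether counting used strand is not given in the sources used here, and the sources name different library kits. The deposited signal values (CP20M) are counts that the authors scaled to 20000000 reads per library and rounded up, so organoid libraries sum to between 20006722 and 20019739. The values show no division by gene length.

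Whole reads were recovered from the step between values (99.79 to 100.0% of values came out whole in the organoid libraries), which gave depths of 512592 to 22370022 reads in organoid and 7949965 to 12825919 in fibroblast libraries. Intervals and limits from reads cover counting error only. Samples were grouped by genotype and treatment labels. Replicate libraries were compared, and the lowest chi-square per gene over 24 pairs was 15.2, so none was a copy.

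Values were tested as log2(CP20M + 20), for genes that reached 200 CP20M (10 CPM) in 2 or more libraries, using limma 3.58.1 (R 4.3.3, linear fits with contrasts and trended empirical Bayes), 1 coefficient for each of 8 groups and Benjamini-Hochberg adjustment over 11562 genes. The size of a fold change on this scale depends on the pseudocount where values lie near or below 20 CP20M. The fits and the recovery of reads were tested on simulated data. Alternatives were the line as a block, pseudocounts of 4 and 100, no filter, TMM scaling, edgeR 4.0.16 (quasi-likelihood) on recovered reads, only the libraries compared, the study's thresholds, and leaving out each line or the shallowest library.

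Because each line is 1 mouse that recurs in every treatment, libraries of a line are paired. Once each group's mean was taken off, libraries sharing a line correlated at 0.50 on average (34 of 36 pairs over 0.1), against −0.25 between lines of a genotype.

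All 10 members are named. From each related list at most 4 called genes with the largest fold change are named per comparison, and 10 genes most correlated with the mean standardized level of the 8 tested members are named. The members and the lists were chosen with earlier results of these data known.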

Additional observations from a re-analysis of the deposited data

How the results depend on the processing

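The number of members called depended on which lines entered and on whether the line was a block. With the line as a replicate block the counts were 8 for 4 µM regorafenib in colonoids (2 without it), 6 for 8 µM regorafenib against 5-FU (1 without it) and 1 for the difference between genotypes in the regorafenib response (0 without it), and it moved no other count of members called by over 1.5 times. Over all genes it raised the counts from 1181 to 1967 at 4 µM, 5 to 77 with 5-FU, 27 to 277 between doses and 684 to 1406 for 8 µM against 5-FU in colonoids, from 428 to 1080, 720 to 1325 and 21 to 287 with 4 µM, 8 µM and 5-FU in tumoroids, from 16 to 29 between genotypes with 5-FU and from 0 to 7 for the difference in the regorafenib response. Without the shallowest library the count for 8 µM regorafenib against 5-FU was 2, and with the block as well, an alternative chosen after seeing the data, the counts were 8 for 4 µM, 8 for 8 µM against 5-FU, 1 for 5-FU in colonoids and 1 for the difference in the regorafenib response. With only the libraries compared in the fit, the counts were 1 for the genotypes in vehicle, 0 for 4 µM, 0 for 8 µM against 5-FU and 1 for the difference in the regorafenib response. With no filter 1 member was called between genotypes in vehicle, with a pseudocount of 100 CP20M 4 members at 4 µM, and with edgeR on recovered reads 5 for 8 µM against 5-FU and 1 between genotypes with 5-FU. The study's thresholds (adjusted p of 0.01 and log2 fold change of 1 for genotypes, adjusted p of 0.001 for regorafenib) left 1 member between genotypes in vehicle, 0 at 4 µM and 1 at 8 µM. With 1 line left out, counts ran from 1 to 8 between genotypes in vehicle, 1 to 6 at 4 µM, 2 to 8 at 8 µM, 0 to 8 between genotypes with 5-FU, 0 to 8 for 8 µM against 5-FU and 0 to 5 for the difference in the regorafenib response, the highest each time without line M1. Without M41 or M40, 7 members passed the filter. The causes were not tested. The members' median log2 fold change between genotypes in vehicle was −4.14, −4.68 with a pseudocount of 4, −3.08 with 100 and −5.87 with edgeR, at 4 µM −2.94, −3.53, −2.24 and −4.90, and for 8 µM against 5-FU −2.80, −3.39, −1.94 and −5.19. TMM scaling changed no member's call. It shifted the all-gene median of the log2 fold changes from −0.23 to −0.04 for 4 µM in colonoids and from 0.19 to 0.05 between doses, and the genes called higher and lower from 381 and 800 to 678 and 595 at 4 µM, and from 301 and 383 to 483 and 346 for 8 µM against 5-FU. EdgeR called 679 higher and 369 lower at 4 µM. Over all 1464 values of single members under the alternatives, 1314 kept their side of the threshold, 58 lost a call, 77 gained one and 15 changed sign.

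The changes of sign were all in members not called. In tumoroids they were these log2 fold changes, with their range when 1 line is left out: at 4 µM Muc2 (−0.56 to 0.13), Agr2 (−0.45 to 0.80) and Spink4 (−0.16 to 0.00), at 8 µM Muc2 (−0.75 to 0.18), Agr2 (−0.24 to 1.29) and Zg16 (highest 0.00, without F11), and with 5-FU Muc2 (−0.23 to 0.27), Spink4 (−0.03 to 0.14) and Fcgbp (−0.20 to 0.19, and 0.01 with a pseudocount of 100 and 0.15 with edgeR). Between doses in colonoids they were Agr2 (−0.92 to 0.19) and Zg16 (−0.14 with edgeR, −0.07 with the block and without the shallowest library, −0.03 without M1). Depth limits the library of line M41 with 4 µM, in which a value below 117 CP20M rests on fewer than 3 reads.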

Other observations

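Among the 11554 other genes tested, the 10 whose level over the 24 organoid libraries was most like the mean standardized level of the 8 tested members were Retnlb (Pearson's r = 0.965), Adh1 (0.951), Tmem236 (0.944), Clec2h (0.941), Sult1d1 (0.941), Chgb (0.941), Tph1 (0.938), Ihh (0.935), Chga (0.928) and Cyp2c55 (0.924). The libraries share lines and treatments, so these values are a description. Retnlb encodes a goblet cell peptide, while Chga, Chgb and Tph1 mark enteroendocrine cells, another secretory type of the crypt. Chga had 8 to 375 CP20M in colonoids with vehicle and at most 31 in any tumoroid library, and Chgb had 20 to 562 and at most 12. Ihh, the hedgehog ligand of differentiated epithelium, had 185 to 1141 in colonoids with vehicle and at most 123 in tumoroids.

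Other lineages were measured alongside. Trpm5, an ion channel of tuft cells, rose by 1.06 on the log2 scale in colonoids with 8 µM regorafenib, with 55 to 70 CP20M with vehicle and 121 to 179 with the drug (adjusted p = 0.0132, limma), the 1 of 2 tuft cell markers tested that was called. The other, Avil, was not called, at −1.57 on the log2 scale (SE 1.18, limma adjusted p = 0.406), so the 2 differed in sign and their median was −0.26. The 7 tuft cell markers summed to 679, 100 and 538 CP20M in M41, M40 and M1 with vehicle and to 287, 225 and 244 with the drug. Of those not tested, Pou2f3, Gfi1b and Alox5ap were at 0 in all 3 lines with the drug but not in all 3 with vehicle. Ascl2, a stem cell factor of the Wnt pathway, fell by 2.30 there, from 62 to 129 CP20M down to 3 to 6, the 1 of 6 stem cell markers called. In vehicle, tumoroids had Axin2, a feedback target of Wnt signaling, 1.93 higher on the log2 scale (5552 to 9312 CP20M against 1366 to 2366 in colonoids) and Krt20, a marker of surface colonocytes, at 5 to 166 against 655 to 1962 (log2 fold change −4.41, adjusted p = 0.0484). Axin2 was the 1 of 6 stem cell markers tested that was called, and Krt20 the 1 of 3 absorptive colonocyte markers. The sums of the 10 absorptive markers overlapped, at 25326 to 37505 CP20M in tumoroids and 25950 to 39194 in colonoids. Car2 alone had 14607 to 25956 in colonoids, so the sum says little of the other markers. Car1, though not called, did not overlap, at 1422 to 5597 in tumoroids and 8991 to 15957 in colonoids. Car4, Slc26a3 and Aqp8 were at 0 in all 3 tumoroid lines but not in all 3 colonoid lines. The tested absorptive markers had a median log2 fold change of −2.14.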
